A study of Mus musculus with 15 samples.

Results

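The paraoxonases Pon1, Pon2 and Pon3 and the apolipoproteins Apoe, Apoc1, Apod and Clu (clusterin, also called apolipoprotein J) were followed through the inguinal white adipose tissue, which is subcutaneous fat, of mice in which floxed alleles of the kinase LKB1 were targeted in adipocytes. The 7 genes were found by their symbols among 37991 features of the deposited count table, and all 7 were among the 12188 features with enough reads to be tested. They were chosen by name with the measured results of all 3 comparisons below already known. The differences between groups are therefore given as a description of these libraries, with no p-value for any of the 7 genes.

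The data are 15 RNA libraries from C57BL/6 mice aged 8 weeks, 5 libraries in each of 3 groups. The dKO libraries labelled 1753 and 1753-2 share a mouse number, so dKO may hold 4 mice rather than 5, and n = 5 for dKO counts libraries. WT mice carried floxed LKB1 alleles (LKB1 F/F), with no Cre recombinase in their label. KO mice carried these alleles together with AdipoqCre, in which the adiponectin promoter drives Cre in adipocytes. In dKO mice AdipoqCre was combined with floxed alleles of both LKB1 and HDAC4. The floxed LKB1 alleles were thus common to all groups, and no labelled group had AdipoqCre without them or floxed HDAC4 alone. LKB1, encoded by Stk11, activates AMPK and related kinases, and HDAC4 is a histone deacetylase held in the cytoplasm when such kinases phosphorylate it. The counts came from whole tissue, which also holds vessel, immune and stromal cells, outside the cells in which AdipoqCre is active.

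Total counts ranged from 2181109 to 4062909 per WT library, from 2969355 to 21570688 per KO library and from 1564004 to 12089891 per dKO library, and mitochondrial ribosomal RNA took 33.55 to 50.03% of them. Stk11 reads were at 29.6 ± 6.33 CPM, read counts scaled to a common library total, in WT (mean ± SD, n = 5), at 18.0 ± 4.202 CPM in KO and at 19.4 ± 2.84 CPM in dKO, with the highest KO (22.5 CPM) and the highest dKO library (22.7 CPM) slightly above the lowest WT library (22.2 CPM). Hdac4 reads were at 12.2 ± 3.16, 10.3 ± 2.16 and 10.3 ± 0.794 CPM in the same order, so whole-gene counts did not separate dKO from KO. CPM throughout was scaled by the trimmed mean of M values (TMM), and replicate numbers only name the libraries within a group. The dKO libraries labelled 1753 and 1753-2, replicates 4 and 5, stood apart from the other 13. Their summed lymph node markers were at 158 and 172 CPM, against 404 to 817 CPM elsewhere, and their summed adipocyte markers at 8738 and 8570 CPM, against 5069 to 7807 CPM elsewhere. Their counts differed from each other by more than sampling noise (chi-square per degree of freedom 4.59, against 4.48 to 42.8 for the other 29 pairs of one group). This value rises with read depth, and these 2 libraries held 8305796 and 12089891 counts, so it is not like for like across pairs. Libraries of 1 mouse can also differ by more than sampling noise, so it does not tell whether they come from 1 mouse. They were kept apart in the fit as GEO labels them, which makes the dKO p-values too small if they share a mouse. With their counts summed, the genes called for dKO against WT went from 75 to 26, of the 7 genes Pon1 was still called there (log2 difference 2.16), and KO against WT still had Pon1, Pon3 and Apoe. Barcode numbers 12 to 16 were used for dKO libraries and for no others, so barcode and dKO genotype cannot be told apart.

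Paraoxonases are calcium-dependent lactonases. In mammals PON1 and PON3 are made mainly by the liver and carried in blood on high-density lipoprotein, where PON1 hydrolyses oxidised lipids and organophosphates such as paraoxon, while PON2 stays inside cells, at the membranes of mitochondria and the endoplasmic reticulum. Apolipoproteins coat lipid particles and direct them to enzymes and receptors; in fat tissue Apoe is made by adipocytes and macrophages and binds receptors of the low-density lipoprotein receptor family.

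In the deposited table, on build mm9, the paraoxonase genes lie side by side on the minus strand of chromosome 6, in the order Pon1, Pon3, Pon2. Pon1 (ENSMUSG00000002588) spans 5118090 to 5143946 with 9 exons, Pon3 (ENSMUSG00000029759) spans 5170852 to 5206286 with 10 exons, and Pon2 (ENSMUSG00000032667) spans 5214147 to 5248455 with 10 exons. Between Pon1 and Pon3 lie 26905 bases and between Pon3 and Pon2 7860 bases, with 0 other features in either gap. Because these neighbours behaved differently in the data, the 250 bases before each annotated start are shown. They come from RefSeq on GRCm38.p6, another build than the table's, at chr6:5193947-5194196 for Pon1, chr6:5256234-5256483 for Pon3 and chr6:5298341-5298590 for Pon2, all on the minus strand and written 5′ to 3′. Capitals mark matches to the CCAAT box (CCAAT, either strand) in Pon1 and to the GC box (GGGCGG, either strand) in Pon3 and Pon2.
Pon1: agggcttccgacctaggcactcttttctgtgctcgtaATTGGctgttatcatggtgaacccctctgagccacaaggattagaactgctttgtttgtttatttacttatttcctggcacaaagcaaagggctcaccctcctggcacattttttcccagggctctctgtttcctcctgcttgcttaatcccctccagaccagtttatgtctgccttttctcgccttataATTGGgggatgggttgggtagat
Pon3: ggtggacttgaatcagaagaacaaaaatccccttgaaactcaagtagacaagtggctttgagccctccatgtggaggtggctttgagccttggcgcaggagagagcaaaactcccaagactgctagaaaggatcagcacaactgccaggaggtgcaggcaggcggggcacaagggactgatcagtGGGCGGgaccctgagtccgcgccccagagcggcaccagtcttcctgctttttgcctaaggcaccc
Pon2: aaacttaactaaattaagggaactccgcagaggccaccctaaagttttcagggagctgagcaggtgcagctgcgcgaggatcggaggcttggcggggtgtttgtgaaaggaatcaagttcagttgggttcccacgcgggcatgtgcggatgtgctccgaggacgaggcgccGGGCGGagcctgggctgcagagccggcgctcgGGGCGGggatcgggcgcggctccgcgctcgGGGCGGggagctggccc
The Pon1 window holds 2 CCAAT boxes and 0 GC boxes at 47.6% G and C, the Pon3 window 1 GC box at 56.8%, and the Pon2 window 3 GC boxes at 65.6%. Of 32851 RefSeq windows of this length, 33.8% hold a CCAAT box and 32.7% a GC box, so neither motif sets these windows apart. The core of the cAMP response element (TGACG), that of nuclear receptor sites (AGGTCA), the E box (CACGTG) and the TATA box (TATAAA) were searched on both strands and are not in these letters. RefSeq windows were matched for 5 of the 7 genes, Apoc1 and Clu not being among them.

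The 3 paraoxonase genes share few long runs of sequence through which reads could be assigned to the wrong one. The coding sequences of Pon1 and Pon2 are 68.4% identical, those of Pon1 and Pon3 63.1% and those of Pon2 and Pon3 66.5%, and the longest exact run shared by any pair is 23 bases. No window of 50 bases of the Pon1, Pon3, Apoe, Apoc1 or Clu transcripts recurs in a transcript of another gene, while 14 of 2360 such windows of Pon2 and 6 of 2025 of Apod do. None of the 7 genes overlaps another feature in the table.

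Targeting LKB1 alone went with more Pon1 and Pon3 and less Apoe, while Pon2, Apoc1, Apod and Clu were not called. A gene was called when its adjusted p over all tested genes was under 0.05 in edgeR's quasi-likelihood test. For KO against WT 3 of the 7 genes were called, namely Pon1 and Pon3 (higher) and Apoe (lower). Of all tested genes 0.624% were called in this comparison. Libraries of the groups did not overlap for Pon1 and Pon3, against 3.16% of all tested genes. For dKO against KO 0 of the 7 genes were called, against 0.0738% of all tested genes, and the libraries did not overlap for Pon1, against 1.16%. For dKO against WT Pon1 was called and was the 1 gene of the 7 without overlap, against 0.615% called and 2.1% without overlap among all tested genes. With the genes chosen from these same contrasts, nothing is read from these shares. The dKO against WT count depended on single libraries and on the tool. With dKO replicate 1 left out, Pon3, Apoc1 and Clu passed besides Pon1, and with dKO replicate 3 left out Pon3 did. With WT replicate 2 left out Apoe passed, and DESeq2 called Pon1, Pon3, Apoe and Apoc1. The median log2 difference of the 7 genes was 0.02, -0.16 and 0.19 in the 3 comparisons, and that of all tested genes was 0.0052, 0.0016 and -0.0025.

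**Figure D1:**
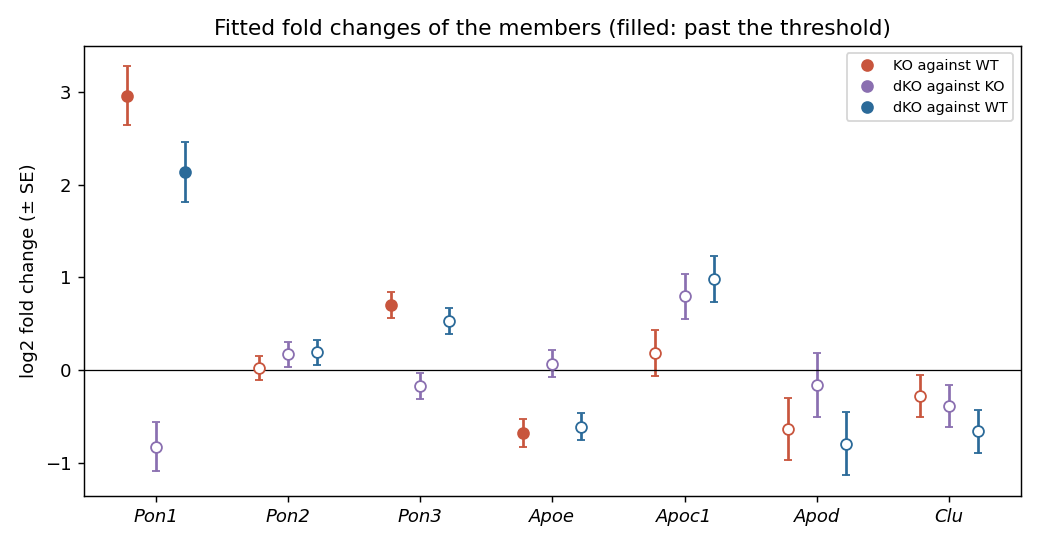
Fitted log2 fold change of each gene with its SE for dKO against WT, dKO against KO and KO against WT, filled where edgeR's adjusted p was under 0.05. The filled points are Pon1 (2.96 and 2.13), Pon3 (0.70) and Apoe (-0.68), and every point of dKO against KO is open.

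Pon1 was low in WT tissue and higher in every KO library. Its level in WT replicates 1 to 5 was 4.19, 0.310, 2.38, 2.29 and 2.94 CPM, resting on 16, 1, 8, 6 and 11 reads. In KO it was 16.3, 19.7, 24.9, 14.96 and 21.8 CPM, from 52 to 337 reads. In dKO it was 9.74, 14.6, 10.6, 9.69 and 10.1 CPM, from 17 to 119 reads. The 3 groups did not overlap, with every dKO library above every WT library and below every KO library, although the highest dKO and the lowest KO library were only 14.6 and 14.96 CPM. The group means were 2.42 ± 1.40, 19.5 ± 4.04 and 10.9 ± 2.06 CPM (SD, n = 5), and without the 1753 libraries the dKO mean was 11.6 ± 2.58 CPM (n = 3). The fitted log2 difference was 2.96 ± 0.32 (SE) for KO against WT, 7.76-fold, while dKO exceeded WT by 2.13 ± 0.32, 4.38-fold. For dKO against KO it was -0.83 ± 0.27, 1.77-fold lower, which did not reach the whole-table threshold. The comparisons against WT share the same WT libraries, so they are not separate evidence.

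Pon3 was already abundant in WT tissue and moved over a narrower range. It was at 69.1, 61.0, 65.0, 55.7 and 61.4 CPM in WT, and at 98.9, 97.0, 126, 86.0 and 99.8 CPM in KO. In dKO it was at 74.98, 107, 67.2, 97.9 and 101 CPM. Every KO library was above every WT library, whereas dKO spanned the gap, with replicates 1 and 3 near WT and replicates 2, 4 and 5 within the KO range. The log2 difference was 0.70 ± 0.14 for KO against WT, 1.62-fold, -0.17 ± 0.14 for dKO against KO and 0.53 ± 0.14 for dKO against WT. Pon3 was past the whole-table threshold for KO against WT, and it fell short of it when WT replicate 2, 3, 4 or 5 or KO replicate 1, 3 or 5 was left out. Over all settings tried its log2 difference stayed between 0.59 and 0.75. KO replicate 3, the library with the most Pon1 and Pon3, also had the highest summed skeletal muscle markers, 3036 CPM. These markers ran from 24.3 to 1089 CPM over the WT libraries and from 82.3 to 3036 CPM over the KO libraries. Over the dKO libraries they ran from 36.7 to 414 CPM, and Tnnc2 was at 0 reads throughout. Of the 6 tested markers 0 were called in any comparison. All 6 were higher in KO than in WT and all 6 lower in dKO than in KO, while 5 were lower in dKO than in WT. Pon3 followed the summed markers with r = 0.61 and Pon1 with r = 0.46 over the 15 libraries. For deviations from group means these values were 0.61 and 0.35. Skeletal muscle was not the list with the strongest r. For the macrophage markers r was -0.68 with Pon3 and -0.51 with Pon1 over the 15 libraries, and -0.47 and 0.20 for deviations from group means. For such deviations Pon3 had r = 0.69 with the adipocyte markers, and Pon1 had r = 0.60 with the endothelial markers. The part of skeletal muscle or of these other cells in the paraoxonase values was not tested.

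Pon2 did not differ between WT and KO beyond the spread of the libraries. It was at 75.9, 101, 74.5, 81.3 and 74.3 CPM in WT, at 83.8, 80.0, 87.7, 74.5 and 87.1 CPM in KO, and at 86.3, 80.3, 74.6, 109 and 111 CPM in dKO. The groups overlapped throughout, and the high dKO values were those of the 1753 libraries. Its log2 difference for KO against WT was 0.02 ± 0.13, with a 95% interval from -0.27 to 0.31. Without the 1753 libraries the dKO mean was 80.4 ± 5.86 CPM (n = 3), and the log2 difference from KO went from 0.17 to -0.03.

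**Figure D2:**
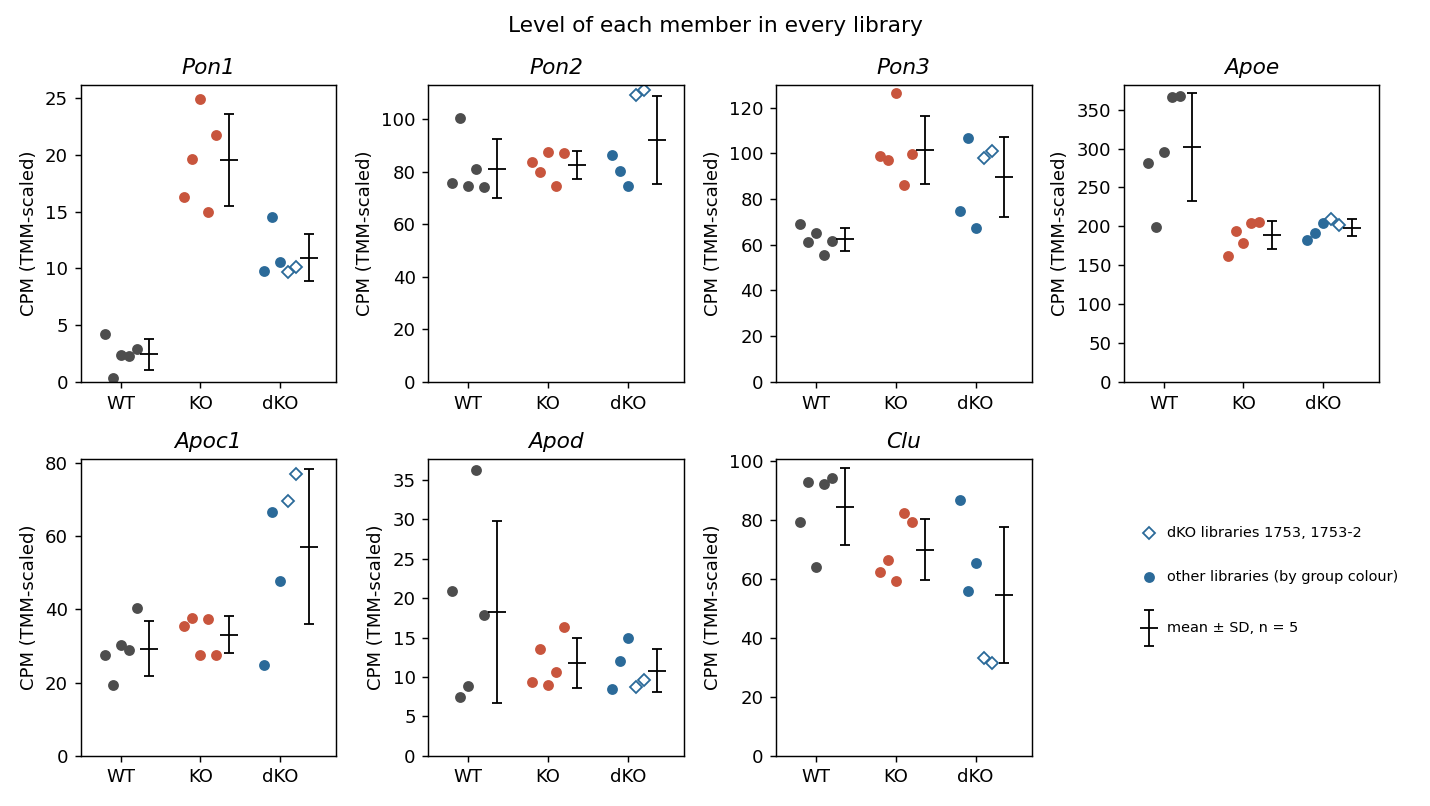
Level of each gene in every library, in TMM-scaled CPM on linear axes from 0, by group, with the mean and SD of the 5 libraries beside the points and the dKO libraries 1753 and 1753-2 as open diamonds. The 3 groups of Pon1 are separate, KO Pon3 sits above WT Pon3, 4 of 5 WT libraries have more Apoe than any other library, and the diamonds are the lowest Clu and the highest Pon2 and Apoc1 values.

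Apoe was the most abundant of the 7 genes, at rank 254 of 12188 by mean CPM, and was lower in both mutant groups. It lies on chromosome 7, minus strand, 20281458 to 20284515 (ENSMUSG00000002985, 6 exons). In WT it was at 281, 199.5, 296, 366 and 367 CPM, in KO at 162, 194, 179, 204 and 206 CPM, and in dKO at 183, 192, 205, 209.9 and 201 CPM. WT replicate 2 lay within the KO and dKO ranges and the other 4 WT libraries lay above every mutant library. The WT libraries were also more spread, with an SD of 69.4 CPM against 18.4 in KO and 10.8 in dKO. The log2 difference was -0.68 ± 0.15 for KO against WT, 1.60-fold lower, -0.61 ± 0.15 for dKO against WT, 1.52-fold lower, and 0.07 ± 0.15 for dKO against KO. It was past the whole-table threshold only for KO against WT, and there it fell short when WT replicate 1, 3, 4 or 5, any 1 of the 5 KO libraries or dKO replicate 2 was left out. Over all settings tried its log2 difference stayed between -0.79 and -0.61. In whole tissue, fewer cells of a type and less RNA per cell cannot be told apart, and macrophages are a known source of Apoe. The summed level of 12 macrophage markers ran from 879 to 1693 CPM in WT, 729 to 974.7 CPM in the KO libraries, and 662 to 872 CPM in the dKO libraries. All 12 markers had a negative log2 difference for KO against WT, 0 of them past the threshold, and none was at 0 reads in any library. Over the 15 libraries, log2 Apoe followed the summed macrophage markers with r = 0.74, and with r = 0.48 once each library was expressed as its deviation from its group mean. For such deviations r was higher with the endothelial markers, at 0.75, and with the progenitor and fibroblast markers, at 0.65. Over the 15 libraries these 2 lists had r = 0.52 and 0.46. The part of any of these cells in the Apoe difference was not tested.

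Apoc1, which encodes a small apolipoprotein that hinders uptake of lipoprotein remnants and inhibits lipoprotein lipase, lies 3450 bases from Apoe with 0 features between them (chromosome 7, minus strand, 20274833 to 20278007, ENSMUSG00000040564, 4 exons). Its pattern was not that of its neighbour. It was at 27.5, 19.2, 30.3, 29.0 and 40.3 CPM in WT, at 35.3, 37.7, 27.5, 37.4 and 27.6 CPM in KO, and at 24.7, 66.5, 47.9, 69.5 and 77.1 CPM in dKO. WT and KO overlapped fully, 4 of 5 dKO libraries were above all others, and dKO replicate 1 lay inside the WT range. The log2 difference was 0.19 ± 0.25 for KO against WT, 0.79 ± 0.24 for dKO against KO and 0.98 ± 0.25 for dKO against WT, none past the whole-table threshold. Without the 1753 libraries these dKO values were 0.49 and 0.66. With dKO replicate 1 left out instead, Apoc1 passed in both dKO comparisons, at 0.98 against KO and 1.15 against WT. Over the 15 libraries Apoc1 had r = -0.76 with the lymph node markers and 0.63 with the progenitor and fibroblast markers, or -0.44 and 0.40 without the 1753 libraries, and the part of these cells was not tested. The ratio of Apoc1 to Apoe CPM, which does not depend on the library total, was 0.0971 ± 0.0113 in WT (SD, n = 5), 0.177 ± 0.0332 in KO and 0.286 ± 0.101 in dKO. Every KO library (0.134 to 0.218) had a higher ratio than every WT library (0.0793 to 0.110), and the dKO libraries ran from 0.135 to 0.383. Neither gene alone separated the KO from the WT libraries. Of single tested genes 3.16% did so, and no such share was taken for ratios, so nothing is read from this gap.

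**Figure D3:**
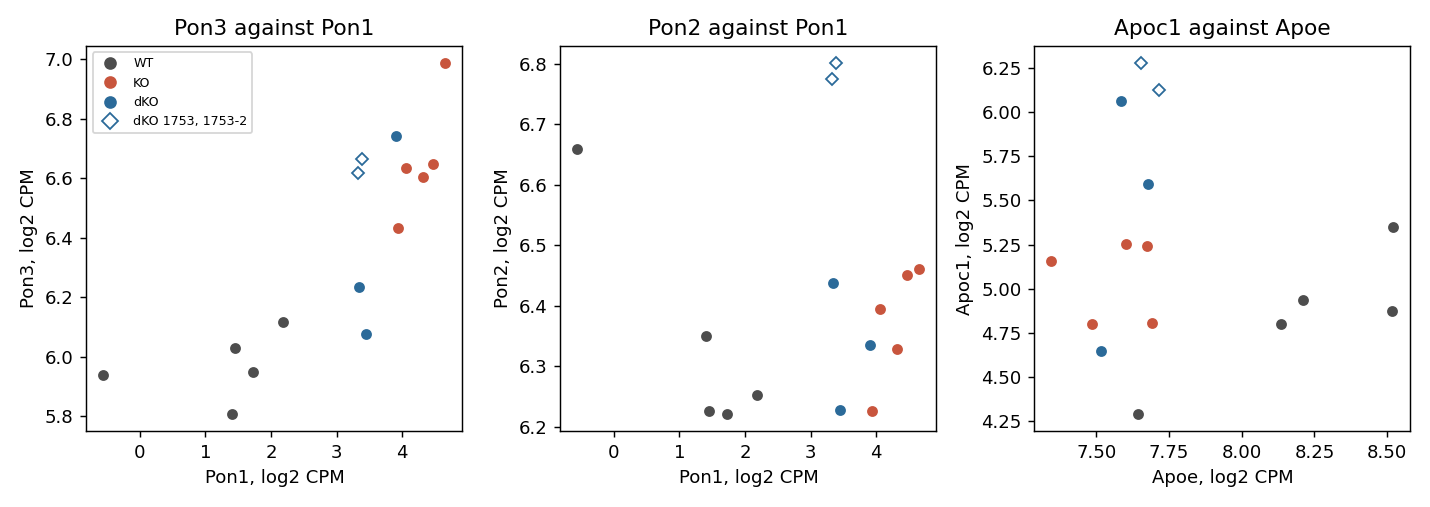
Each point is 1 library on log2 CPM axes, coloured by group, with the 1753 libraries as open diamonds. Pon3 is high where Pon1 is high, Pon2 shows no such order with Pon1, and Apoc1 and Apoe share no common line although their genes are neighbours.

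Apod encodes a lipocalin that binds arachidonic acid and other small hydrophobic molecules (chromosome 16, minus strand, 31296278 to 31314894, ENSMUSG00000022548, 5 exons). It was at 20.9, 7.44, 8.91, 36.2 and 17.9 CPM in WT, at 9.30, 13.6, 9.03, 10.6 and 16.3 CPM in KO, and at 8.44, 12.1, 14.9, 8.76 and 9.66 CPM in dKO. WT held both the lowest and the highest library, and the groups overlapped. The log2 difference was -0.63 ± 0.33 for KO against WT and -0.79 ± 0.34 between dKO and WT, neither past the threshold. Without WT replicate 4 these were -0.26 and -0.42. The highest library, WT replicate 4, also had the highest summed macrophage markers, 1693 CPM, and the highest summed adipose progenitor and fibroblast markers, 3941 CPM. Over the 15 libraries Apod followed the macrophage markers with r = 0.77, and the progenitor markers with r = 0.50, or 0.84 without the 1753 libraries. These are descriptions over libraries that share groups and depth, and the part of these cells in the Apod values was not tested.

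Clu encodes a secreted chaperone that also restrains the terminal complement complex (chromosome 14, plus strand, 66587320 to 66600385, ENSMUSG00000022037, 14 exons). It was at 79.3, 92.9, 64.1, 92.3 and 94.3 CPM in WT, at 62.3, 66.5, 59.3, 82.3 and 79.5 CPM in KO, and at 86.7, 56.0, 65.3, 33.2 and 31.4 CPM in dKO. The groups overlapped, and the 1753 libraries were the lowest of all 15. With all libraries the log2 difference was -0.28 ± 0.23 for KO against WT, -0.39 ± 0.23 for dKO against KO and -0.66 ± 0.23 for dKO against WT, none past the threshold. Without the 1753 libraries the difference of dKO from KO was -0.0039, and the dKO mean of 69.3 ± 15.7 CPM (n = 3) was close to the KO mean of 70.0 ± 10.3 CPM. Clu followed the 9 tested lymph node markers closely, with r = 0.89 over the 15 libraries, 0.91 for deviations from group means and 0.52 without the 1753 libraries. With the macrophage markers r was 0.73 over the 15 libraries and 0.73 without the 1753 libraries, where it exceeded that of the lymph node markers. With the adipocyte markers it was -0.79 and -0.50, and the part of these cells was not tested. The summed level of the lymph node markers was 410 to 817 CPM in WT, 487 to 654 CPM in the KO libraries and 158 to 667 CPM in those of dKO. Of the list, Ccl21a was at 0 reads in every library and Cr2, a receptor of B cells and follicular dendritic cells, had 159 to 1844 reads. Inguinal fat holds a lymph node, follicular dendritic cells are a known source of clusterin, and the part of lymph node tissue in the Clu values was not tested.

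**Figure D4:**
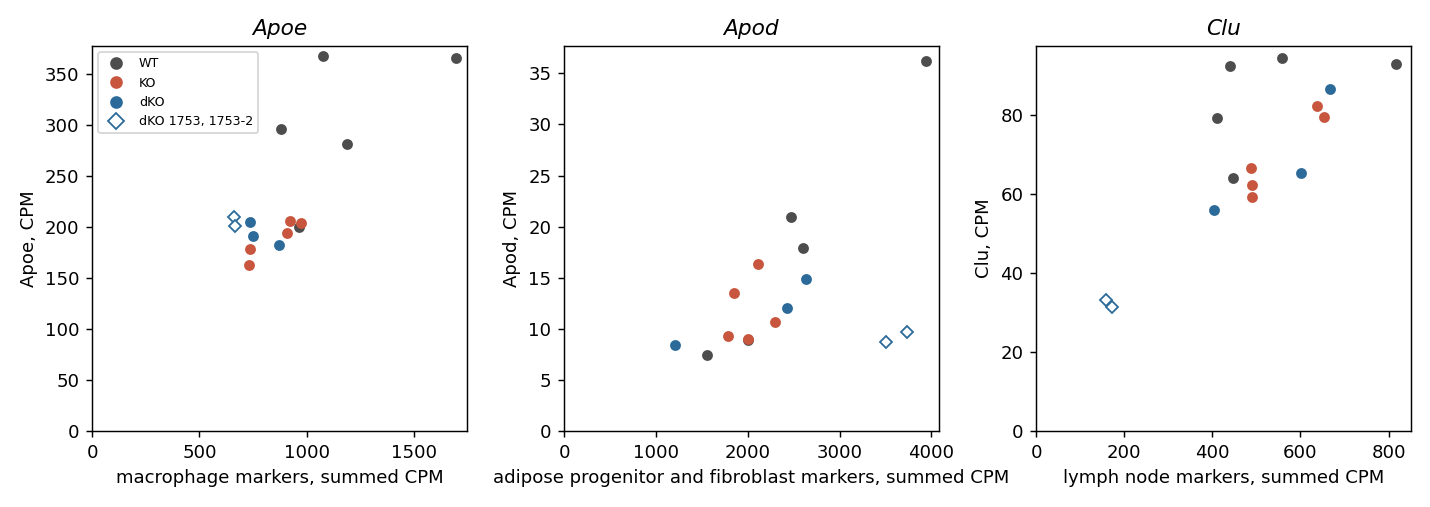
Level of Apoe, Apod and Clu (CPM, vertical axes) in each of the 15 libraries against the summed CPM of macrophage, adipose progenitor and fibroblast, and lymph node markers, coloured by group, with the 1753 libraries as open diamonds. WT replicate 4 is at the upper right for Apod, and the diamonds are at the lower left for Clu, at 33.2 and 31.4 CPM of Clu beside 158 and 172 CPM of lymph node markers.

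Per kilobase of exon, so that genes can be set beside each other, Apoe led at 152 ± 35.1 CPM per kilobase in WT, followed by Apoc1 at 54.5 ± 14.1, Clu at 24.6 ± 3.77, Pon3 at 18.5 ± 1.47, Pon2 at 17.5 ± 2.40, Apod at 7.09 ± 4.49 and Pon1 at 0.835 ± 0.484. Pon3 and Pon2 were within each other's spread in WT. In KO the order began with Apoe at 95.5 ± 9.32 and Apoc1 at 61.7 ± 9.60, and Pon3, at 30.0 ± 4.40, then stood above Clu, at 20.4 ± 3.01, and Pon2, at 17.8 ± 1.17. Pon1, at 6.74 ± 1.40, stood above Apod, at 4.57 ± 1.21, in KO mean level. In dKO Apoe at 99.997 ± 5.46 and Apoc1 at 106 ± 39.3 were within each other's spread, as were Apod at 4.18 ± 1.06 and Pon1 at 3.77 ± 0.711. The deposited exon lengths used here are 1980 bases for Apoe, 2898 for Pon1 and 537 for Apoc1. The GENCODE transcripts used for the shared windows have 1221, 1513 and 532 bases, so the order of genes can depend on the length taken.

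**Figure D5:**
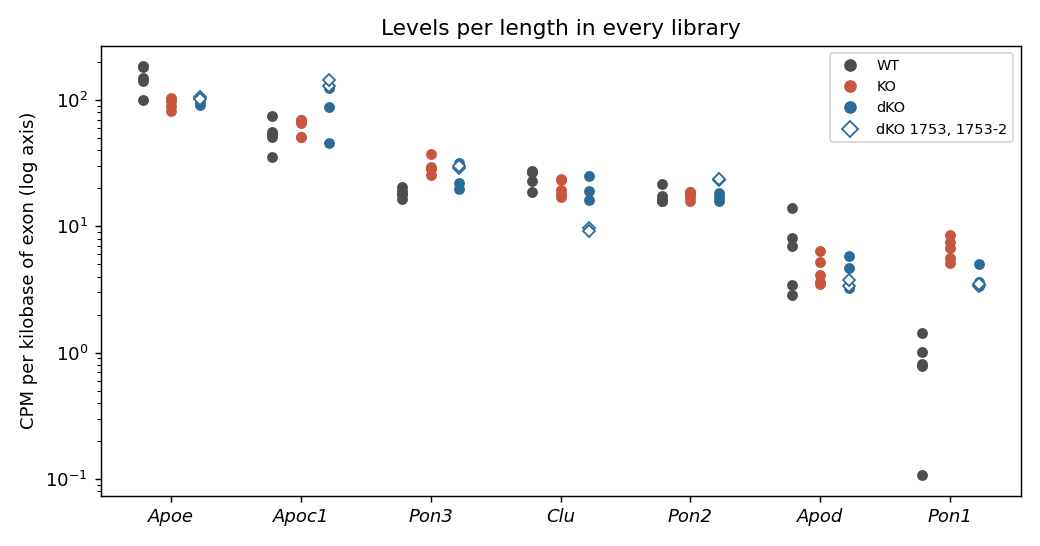
CPM per kilobase of exon for each gene in every library on a log axis, ordered by mean level and grouped by genotype, with the 1753 libraries as open diamonds. Apoe and Apoc1 are at the top, and Pon1 spans the widest range, from 0.107 in WT replicate 2 to 8.60 in KO replicate 3.

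Among the 7 genes themselves, Pon1 and Pon3 followed each other most closely, with r = 0.83 for log2 CPM over the 15 libraries and 0.84 without the 1753 libraries. For deviations from group means r was 0.29, so the likeness was closer across groups than within them. Pon2 and Pon1 had r = -0.04 over all libraries and -0.52 for deviations from group means. Apoe and Apoc1 had r = -0.12 over all libraries and 0.50 for deviations from group means. Apoe and Apod had r = 0.69 and 0.71, and Apoc1 and Clu were opposed, with r = -0.79 and -0.65. Without the 1753 libraries Apoc1 and Clu had r = -0.54. These values describe 15 libraries that share groups, depth and scaling.

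The genes most like each of the 7 were taken as the 3 tested genes with the highest r of log2 CPM over the 15 libraries. For Pon1 these were Plin5 (r = 0.95), a lipid droplet protein that meets mitochondria, Dio2 (0.94), the deiodinase that activates thyroid hormone in brown fat, and Ucp1 (0.94), the uncoupling protein of thermogenic fat. Over WT, KO and dKO, mean Ucp1 was 13.9, 489 and 98.5 CPM and mean Plin5 2.36, 13.7 and 8.58 CPM. For Pon3 the genes were Adra1a (0.94), an adrenergic receptor, Otop1 (0.92), a proton channel, and Sucla2 (0.915), a succinyl-CoA ligase subunit, with mean Otop1 at 11.7, 69.3 and 38.7 CPM. Within groups the likeness of these genes was weaker, with r for deviations from group means of 0.67 for Plin5 and Pon1 and 0.81 for Adra1a and Pon3. For Pon2 they were Atp5g1 (0.87), a subunit of ATP synthase, Tmem41b (0.87) and Rbm28 (0.86), none of them among the genes named for Pon1 or Pon3. Without the 1753 libraries these values for Pon2 were lower, at 0.64, 0.78 and 0.61.

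For Apoe the most alike included Cst3 (0.925), the secreted protease inhibitor cystatin C, and Slc2a13 (0.90), a myo-inositol transporter. For Apod they were Agtrap (0.91), Csf1r (0.88), the receptor of macrophage colony-stimulating factor, and Mmp14 (0.88), a membrane-bound matrix protease. For Clu they were Myo1g (0.96), Laptm5 (0.96) and Ptprj (0.96), of which Myo1g and Laptm5 are known for their expression in blood cells, and their r for deviations from group means was 0.95, 0.96 and 0.93. For Apoc1 they were Cntnap1 (0.87), Tob1 (0.86) and Crtap (0.84), which were lower without the 1753 libraries, at 0.79, 0.71 and 0.68.

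Other genes of lipoprotein metabolism were taken from 6 lists, and their adjusted p-values are over all tested genes. The other apolipoproteins were nearly silent. Of 16, Apol6 was tested, at 71.8 ± 24.0, 72.8 ± 9.63 and 73.0 ± 17.03 CPM in WT, KO and dKO, with 0 calls. The 15 others had at most 21 reads in any library, among them Apoa1, the main protein of high-density lipoprotein, with 4 reads in all libraries together, and Apob, the structural protein of low-density lipoprotein, with 81. Hepatocyte markers were low as well, with Ttr at 0 reads in every library and a summed level of 2.27 to 17.4 CPM over the 5 matched genes of 6 listed.

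Receptors for lipoproteins showed no called change. Of 15 listed, 12 were tested and 0 were called in any of the 3 comparisons, with a median log2 difference of -0.07 for KO against WT, 0.16 for dKO against KO and 0.09 for dKO against WT. The most abundant were Cd36, a fatty acid and lipoprotein scavenger receptor, at 989 ± 125, 1008 ± 256 and 1038 ± 306 CPM in WT, KO and dKO, and Lrp1, an Apoe receptor, at 394 ± 67.1, 325 ± 27.6 and 359.6 ± 94.6 CPM. Among 10 tested genes of 14 for lipoprotein remodelling 0 were called, with medians of 0.05, -0.14 and -0.02. Lpl, lipoprotein lipase, was at 2825 ± 649.8, 4007 ± 1565 and 4656 ± 2491 CPM, and Angptl4, its inhibitor, at 83.9 ± 30.2, 133 ± 45.8 and 97.2 ± 47.1 CPM. Apoe is a known target of the liver X receptors in macrophages and fat, and of the 16 genes listed for these receptors and cholesterol efflux 15 were tested and 0 called. Their median was -0.14 for KO against WT, with 4 of 15 above 0, then 0.07 and -0.02. Abca1, the efflux pump that loads lipid onto apolipoproteins, was at 232 ± 37.0, 209.7 ± 28.9 and 242 ± 20.0 CPM, and Npc2, a lysosomal cholesterol carrier, at 130.1 ± 19.1, 106 ± 11.3 and 131 ± 50.9 CPM. Of 9 other lipocalins, the family of Apod, 4 were tested and 0 called, with medians of 0.17, 0.43 and 0.55, led by Rbp4 at 46.7 ± 11.3, 49.1 ± 13.2 and 93.7 ± 78.5 CPM and Orm1 at 22.3 ± 6.51, 26.9 ± 3.30 and 38.8 ± 23.1 CPM. These counts of 0 come from edgeR's quasi-likelihood test, which gave 1163, 752 and 1769 genes an unadjusted p under 0.05 in the 3 comparisons. DESeq2 and limma voom called the scavenger receptor Stab1 (stabilin) for KO against WT and no other gene of these lists.

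Complement genes, listed because clusterin restrains complement, held the only calls of the 6 lists with all 15 libraries in edgeR's fit. With libraries left out, edgeR also called Stab1 for KO against WT (without WT replicate 2, or without both 1753 libraries) and Lpcat3 and Nceh1, of the liver X receptor list, for dKO against WT (without dKO replicate 1). Of 14 listed, 12 were tested, and for dKO against WT 2 fell, C2 and Serping1, against 0.615% called among all tested genes. The list was chosen with earlier results of these data known, so nothing is read from this share. Serping1, the inhibitor of the first complement component, was at 164 ± 31.2 CPM in the WT group, at 144 ± 21.99 CPM with LKB1 targeted and at 92.8 ± 22.9 CPM with both targeted. It fell by 0.83 ± 0.18 on the log2 scale, 1.78-fold lower (edgeR adjusted p = 0.0340). C2, a component of the classical convertase, was at 17.5 ± 3.11, 12.4 ± 4.29 and 7.52 ± 3.77 CPM, a log2 difference of -1.35 ± 0.30 (edgeR adjusted p = 0.0430). The dKO and WT libraries of both genes overlapped, at 67.5 to 121 against 115 to 191.5 CPM for Serping1 and 3.98 to 13.7 against 13.4 to 19.9 CPM for C2. Neither passed without the 1753 libraries, at -0.62 and -0.97, or with these summed, at -0.76 and -1.24. In the same comparison all 12 macrophage markers and all 9 tested lymph node markers had negative differences, 0 of them called, and their part was not tested. The list's median was -0.17 for KO against WT, -0.27 for dKO against KO and -0.40 for dKO against WT. No complement gene was called for KO against WT or dKO against KO with all 15 libraries in edgeR's fit. C4b, a component of the classical pathway, had a level of 239 ± 32.9 CPM over the WT libraries and 136 ± 21.3 CPM over those of KO, with every KO library below every WT library, and edgeR called it with only these groups in the fit or without the 1753 libraries. DESeq2 called C3 for KO against WT and C4b, C2 and Serping1 for dKO against WT, and limma voom called C3 and C4b for KO against WT.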

How the data were processed

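Per the labels' protocols, total RNA was isolated on RNeasy columns and amplified into libraries with NuGEN's Ovation reagents. The submitters' processing notes name FastQC, Subread, featureCounts and edgeR, with no versions, and the build mm9. Strand setting and multi-mapping rules have no source here. Read counts per gene and library were used as deposited, being raw counts per the file headers, and 45 scaled columns were left aside. Of 37991 features, 415 have no symbol and are named by identifier.

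Groups came from titles and genotypes. Replicate numbers are names only. The analysis ran in R 4.3.3 with edgeR 4.0.16. Features were kept by edgeR's filter (minimum count 10, minimum total 15) and libraries were scaled by TMM. All 15 entered 1 robust quasi-likelihood fit with 12 residual degrees of freedom. The fit was tried on simulated counts with equal spread, independent libraries and larger changes than those of Pon3 and Apoe, so that trial does not cover such calls. Tests were two-sided, adjusted by Benjamini-Hochberg over 12188 genes and called at an adjusted p under 0.05. The SE of a log2 difference is its size over the square root of F. Correlations used log2 CPM with a prior count of 2. Alternatives used DESeq2 1.42.0, limma 3.58.1, other scalings and filters, and left-out libraries. The labels give no statement on separate litters or cages, so p-values measure the spread between these samples.

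The 7 genes, the 6 pathway lists and the marker lists were chosen with earlier results of these data known. Named were all 7 genes, up to 4 called genes per list and comparison or else its most abundant 2, and the 3 genes most correlated with each of the 7, of which 1 is not reported here; genes called by another tool alone, or set at 0 or low reads, were named after their values were seen. Coding identity used the longest open reading frame of GENCODE M21 transcripts, and promoter windows are from RefSeq. A count of reads covers counting error only: depths of 911371 to 12689115 reads outside mitochondrial ribosomal RNA leave genes near 1 CPM with few reads.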

Additional observations from a re-analysis of the deposited data

Results flagged for a closer look

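Of 21 sets of 5 libraries (7 genes in 3 groups), 2 held a library far from the others, where the gap to its nearest neighbour exceeded 0.71 of the range; chance alone flags about 1 set in 20. Pon1 in dKO replicate 2 was at 14.6 CPM, with the next dKO library at 10.6 CPM (gap 0.82 of the range), and this library is the one closest to the KO range. Pon2 in WT replicate 2 was at 101 CPM, with the next WT library at 81.3 CPM (gap 0.735 of the range), and the same library had the lowest Pon1, Apoe, Apoc1 and Apod of WT.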

How the results depend on the processing

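Pon1 was called for KO against WT in all 24 settings (log2 difference 2.58 to 3.25) and for dKO against WT in all 24 (1.80 to 2.42). Pon3 for KO against WT was called in 17 of 24 and Apoe in 14 of 24, the losses all coming with 1 library left out. Of the 7 genes, those called for KO against WT were 1 to 3 with 1 library left out. For dKO against KO they were 0 to 1 with 1 library left out and for dKO against WT 1 to 4, and 4 with DESeq2. Pon2 for KO against WT turned below 0 with any of WT replicates 1, 3 and 5 and KO replicates 3 and 5 left out (-0.0215 to 0.112 over all settings), and without both 1753 libraries it was -0.0264 against KO and -0.0156 against WT. All genes called for KO against WT were 76, and 163 with DESeq2, 275 with limma voom, 224 with only the compared groups, 270 without both 1753 libraries and 36 to 93 with 1 library left out. For dKO against KO the 9 genes became 19 with no filter, 37 with DESeq2, 5 with only the compared groups, 4 with the 1753 libraries summed, 19 without them and 4 to 13 with 1 library left out. For dKO against WT the 75 became 220 with DESeq2, 28 with voom, 32 with only the compared groups, 26 with the 1753 libraries summed, 30 without them and 27 to 240 with 1 library left out. Pathway genes called for KO against WT were 0, and 2 with DESeq2, 3 with voom, 1 with only the compared groups, 2 without the 1753 libraries and 0 to 1 with 1 library left out. For dKO against WT the 2 became 0 with voom, with only the compared groups, with the 1753 libraries summed or without them, and 0 to 4 with 1 library left out. The cause of these shifts was not tested. No paired analysis was possible because no replicate or mouse number in the labels is shared between groups. Depth limits Pon1 most, with 1 to 16 reads per WT library.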
